A study of Mus musculus with 2 samples.

Results

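The mitochondrial ribosomal protein genes were taken as every row of the deposited count table whose symbol begins with Mrpl or Mrps followed by a number. The rule found 78 of 22036 gene rows, 49 with an Mrpl symbol (large subunit) and 29 with an Mrps symbol (small subunit). The study compared 2 cultures of CD4 T cells from spleen and lymph nodes of wild-type mice, labelled pathogenic Th17 (pTh17) and non-pathogenic Th17 (npTh17), and sequenced 1 polyadenylated RNA library from each. To the pTh17 culture were added 20 ng/mL of IL-6 with 20 ng/mL of Activin-A, which belongs to the TGFβ family. To the npTh17 culture were added 20 ng/mL of IL-6 with 2 ng/mL of recombinant human TGFβ1. Both cultures also shared antibodies that neutralise IFNγ and IL-4, plates coated with anti-CD3 (10 μg/mL) and anti-CD28 (5 μg/mL), and lysis after 24 h. The labels do not say how many mice were pooled.

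The mitochondrial ribosome translates the few mRNAs of the mitochondrial genome, all of which encode subunits of the respiratory chain and ATP synthase. Its ribosomal RNAs are made in the organelle, but every one of its proteins is encoded in the nucleus, translated in the cytosol and imported. The large subunit carries the peptidyl transferase centre and the exit tunnel, and the small subunit carries the decoding centre. Some of its proteins descend from bacterial ribosomal proteins and others are found only in mitochondrial ribosomes. In T cells, mitochondrial translation is known to be needed for the growth in respiratory capacity that follows activation.

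The table held 30877656 counts over named genes for pTh17 and 33470161 for npTh17. CD4 T cell markers (7 of 8 listed genes are in the table) summed to 2613 CPM, or counts relative to library size, in pTh17 and 2634 CPM in npTh17. Singly they went both ways, with 3 higher and 4 lower in pTh17. Cd3e had 167 CPM in pTh17 and 252 in npTh17, and Cd3g had 73.4 in pTh17 and 101 in npTh17. Cd3d had 107 CPM in pTh17 and 88.9 in npTh17, and Cd28 had 806 in pTh17 and 722 in npTh17. The B cell marker Pax5, the macrophage markers Csf1r and Adgre1, the NK markers Ncr1 and Klrb1c and the plasma cell marker Jchain were at 0 counts in both libraries. CD8 T cell, B cell, NK cell and erythroid markers each summed to between 0.291 and 1.91 CPM in pTh17 and between 0.0598 and 2.33 CPM in npTh17. Myeloid markers, most of them counts of the widely expressed Cst3, summed to 37.9 CPM in pTh17 and 32.9 CPM in npTh17. Some markers were found in 1 library only: Itgam had 0 counts in pTh17 and 24 in npTh17, Itgax had 0 in pTh17 and 20 in npTh17, and the B cell marker Cd79b had 11 in pTh17 and 0 in npTh17. Plasma cell markers, most of them counts of the widely expressed Xbp1, summed to 108 CPM in pTh17 and 141 CPM in npTh17. The part of these markers in the results was not tested.

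Transcripts of the mitochondrial ribosome took a slightly larger part of the pTh17 library. The 78 genes together had 138412 counts in pTh17 and 128937 in npTh17, or 4476 CPM in pTh17 and 3858 CPM in npTh17. That was 0.448% of all counts over named genes in pTh17 and 0.385% in npTh17. The log2 ratio of the sums, pTh17 over npTh17, was 0.21 with a 95% interval of 0.20 to 0.23. Intervals throughout were computed by the exact Clopper-Pearson method on the binomial share of counts that pTh17 contributed. They cover counting error only, since PCR copies of 1 molecule could not be recognised. With 1 library per condition no ratio has a replicate check, and none was tested. In bulk RNA, fewer cells of a type and less RNA per cell cannot be told apart.

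The difference was small and spread over many members. The median log2 ratio over the 78 members was 0.24, against -0.0045 over the 10597 genes that averaged 1 CPM or more. All 78 members passed that filter, with mean values between 7.79 and 144 CPM. The ratio was above 1 for 61 members, while 49.4% of all measured genes were above 1. The lowest of 3 limits used to count members was a log2 ratio of 0.32 in either direction. A log2 ratio of at least 0.32 was seen for 32 members (16.5% of measured genes) and one of -0.32 or below for 2 members (15.2%). At 1.5-fold the counts were 11 higher (7.2%) and 0 lower (5.76%), and at 2-fold they were 3 higher (2.25%) and 0 lower (1.95%). The interval lay above a ratio of 1 for 53 members (33% of measured genes), below it for 9 members (34%) and across it for 16. These intervals may be too narrow, since a fragment may have been counted more than once. With counts halved they lay above for 50 members, below for 6 and across for 22. Over the 10597 measured genes, 2892 then lay above and 2939 below. The middle 90% of measured genes spanned log2 ratios of -0.63 to 0.70. Of the members, 70 fell inside that span, 8 above it and 0 below it.

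**Figure D1:**
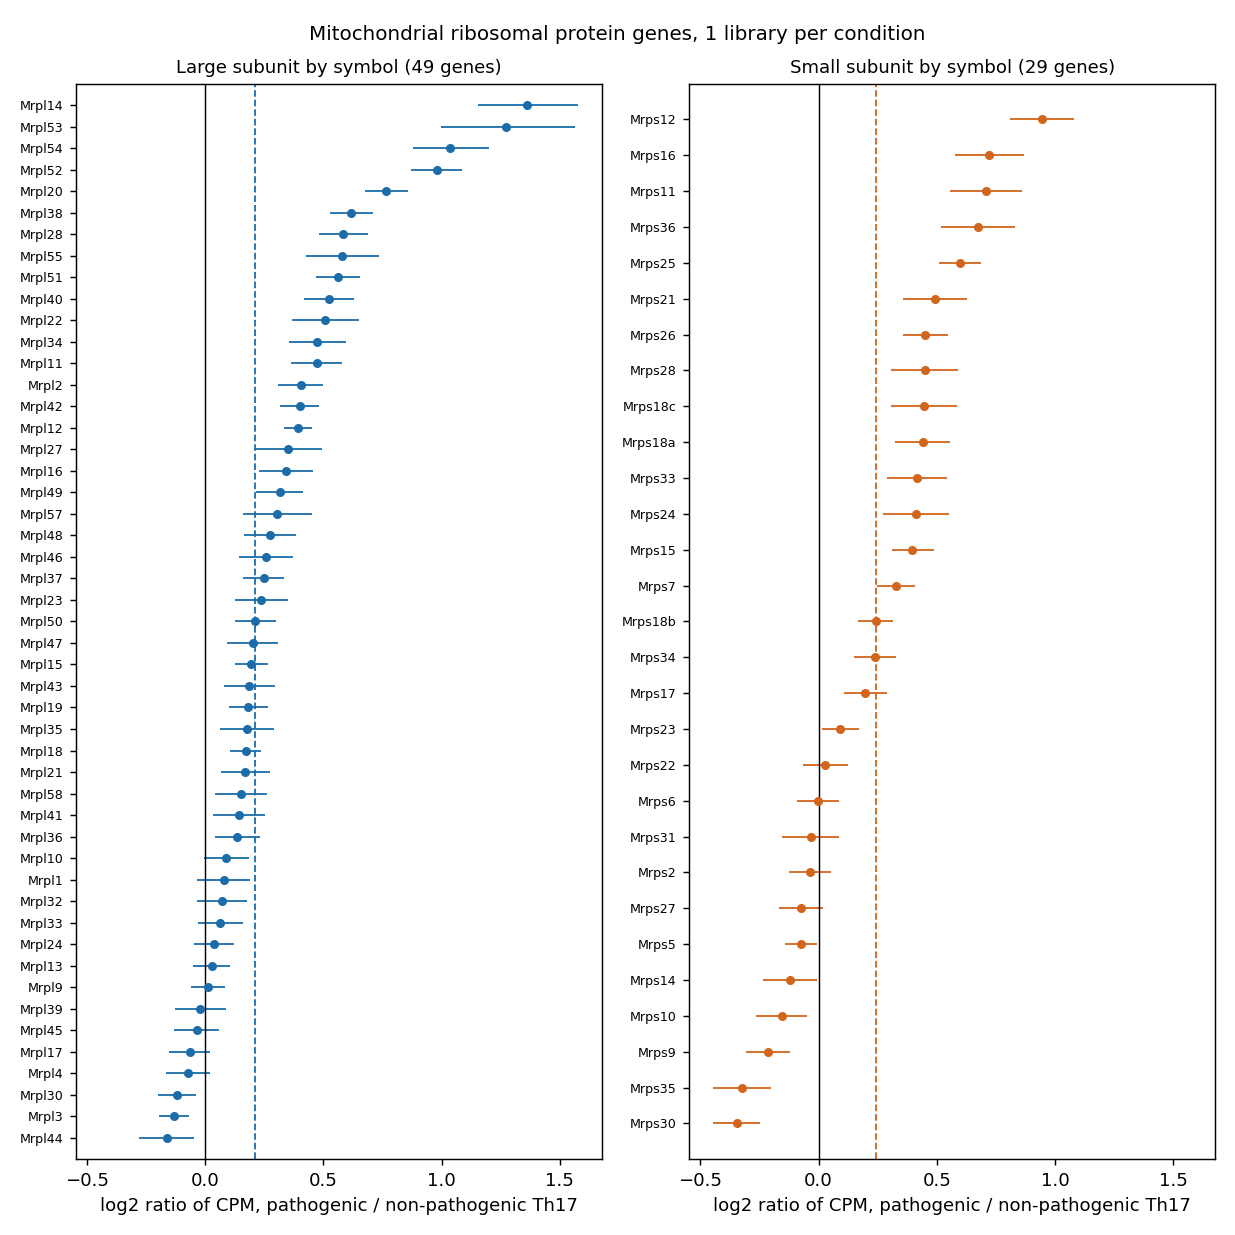
Log2 ratio of CPM, pathogenic over non-pathogenic Th17, for each of the 49 large-subunit genes (left) and 29 small-subunit genes (right), sorted within subunit. Points are single ratios of 1 library to 1 library, bars are 95% intervals that cover counting error only, the solid line marks equal levels and the dashed line each subunit's median (0.21 for large, 0.24 for small). Mrpl14 stands highest at 1.36 and Mrps30 lowest at -0.35.

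Promoter sequences are given for the genes with the highest and the lowest ratio in each subunit, with subunits assigned by symbol. The genes were taken among those with 1 annotated window, to show what lies upstream of members at opposite ends of the range. The windows run from 250 bases before to 50 bases after the RefSeq start site on GRCm38.p6, the assembly called mm10, and are printed 5′ to 3′ on the strand of the gene. Capitals mark matches, on either strand, to the letters searched.
Mrpl14, highest ratio of the large subunit (chr17:45686099-45686398, plus strand): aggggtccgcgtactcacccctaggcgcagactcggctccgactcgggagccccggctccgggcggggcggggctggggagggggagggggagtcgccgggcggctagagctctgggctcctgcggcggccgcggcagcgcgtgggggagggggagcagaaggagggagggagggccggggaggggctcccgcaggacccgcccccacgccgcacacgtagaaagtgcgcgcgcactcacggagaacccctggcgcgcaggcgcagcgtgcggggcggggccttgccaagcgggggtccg
Mrpl44, lowest ratio of the large subunit (chr1:79775768-79776067, plus strand): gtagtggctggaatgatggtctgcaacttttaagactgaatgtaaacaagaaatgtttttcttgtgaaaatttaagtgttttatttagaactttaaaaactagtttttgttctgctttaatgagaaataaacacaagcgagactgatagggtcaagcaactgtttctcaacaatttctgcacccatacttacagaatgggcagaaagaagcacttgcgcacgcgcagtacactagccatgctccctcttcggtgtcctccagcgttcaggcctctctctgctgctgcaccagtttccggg
Mrps12, highest ratio of the small subunit (chr7:28741772-28742071, minus strand): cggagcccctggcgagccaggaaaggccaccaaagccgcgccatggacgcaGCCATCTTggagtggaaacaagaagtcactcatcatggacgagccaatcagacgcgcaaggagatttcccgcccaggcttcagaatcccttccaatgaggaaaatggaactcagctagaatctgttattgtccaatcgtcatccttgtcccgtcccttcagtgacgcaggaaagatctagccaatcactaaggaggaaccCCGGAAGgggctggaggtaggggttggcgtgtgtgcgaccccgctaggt
Mrps30, lowest ratio of the small subunit (chr13:118387203-118387502, minus strand): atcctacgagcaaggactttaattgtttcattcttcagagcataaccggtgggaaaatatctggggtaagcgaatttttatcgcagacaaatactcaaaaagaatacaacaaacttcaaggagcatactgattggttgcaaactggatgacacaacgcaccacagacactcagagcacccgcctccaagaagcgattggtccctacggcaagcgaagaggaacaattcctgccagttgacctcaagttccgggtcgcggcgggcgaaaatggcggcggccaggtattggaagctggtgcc
The search used GCATGCGC for NRF1, CCGGAAG for the ETS family (the family of GABP, also called NRF2), and AAGATGGC for YY1, on both strands, where none of the 3 strings contains another. These are factors long linked to nuclear genes for mitochondrial proteins. The Mrps12 window held 2 matches, a YY1 match on the reverse strand and an ETS match at the start site. The windows of Mrpl14, Mrpl44 and Mrps30 held 0 exact matches. Variants of these strings were not searched, so 0 does not mean that a window lacks sites for these factors.

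A window was matched by symbol for 69 members. CCGGAAG stood in the windows of 26 members (37.7%), against 22.7% of 8351 other measured genes with a window and 9.93% of all 27025 genes with one. AAGATGGC stood in 12 (17.4%), against 5.80% of other measured genes and 3.19% of all. GCATGCGC stood in 8 (11.6%), against 6.69% of other measured genes and 3.05% of all. At least 1 of these strings was present for 38 members (55.1%), against 31.8% of other measured genes and 14.9% of all. The 38 members with a match had a median log2 ratio of 0.29 and a median transcript length of 1308 bases, and those without one had 0.20 and 1339 bases. The strings went different ways. The median was 0.33 with CCGGAAG and 0.20 without it, and 0.32 with AAGATGGC and 0.21 without it. With GCATGCGC it was 0.07, against 0.27 without it, with median lengths of 1682 and 1316 bases. These are matches of letters, and whether any is bound was not measured.

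The 5 highest large-subunit genes were Mrpl14, Mrpl53, Mrpl54, Mrpl52 and Mrpl20. Mrpl14 (chr17:45686322-45698495, plus strand) encodes a protein of the face of the large subunit that meets the small one, where the assembly factor Malsu1 also docks. It had 619 counts in pTh17 and 260 in npTh17, a 2.57-fold ratio (2.22 to 2.99). Per length it had 27.2 FPKM in pTh17 and 10.6 in npTh17. Of its exon bases, 11.2% overlap Tmem63b on the opposite strand, which had 656 counts in pTh17 and 732 in npTh17. Of all members Mrpl14 had the widest gap between the libraries, and only Mrpl53 had fewer counts in either library. Malsu1 itself had 652 counts in pTh17 and 602 in npTh17, a log2 ratio of 0.23 (0.07 to 0.39).

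Mrpl54 (chr10:81264713-81266934, minus strand), a protein with no bacterial counterpart, had 916 counts in pTh17 and 482 in npTh17, a 2.05-fold ratio (1.84 to 2.30). Mrpl52 (chr14:54426909-54429756, plus strand), also without a bacterial counterpart, had 1992 counts in pTh17 and 1092 in npTh17, a 1.97-fold ratio (1.83 to 2.12). Mrpl20, whose bacterial homologue is needed early in assembly of the large subunit in Escherichia coli, had 2558 counts in pTh17 and 1626 in npTh17, a 1.70-fold ratio (1.60 to 1.81). Mrpl54, Mrpl52 and Mrpl20 share no exon bases with another gene of GENCODE M21.

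Mrpl53 (chr6:83109040-83109939, plus strand) shares most of its exon bases with another counted gene. It had 341 counts in pTh17 and 152 in npTh17, a 2.41-fold ratio (2.00 to 2.95), but 695 bases, or 88.0% of its exon bases, also belong to Gm42688 on the same strand. Gm42688 had 365 counts in pTh17 and 634 in npTh17, the opposite direction. The 2 genes summed to 706 counts in pTh17 and 786 in npTh17, a log2 ratio of -0.04 (-0.19 to 0.11). How reads were assigned between the 2 annotations was not tested.

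Proteins of the stalk, which recruits the translation GTPases, did not share 1 ratio. Mrpl12, the stalk protein itself, had 5069 counts in pTh17 and 4178 in npTh17, a log2 ratio of 0.39 (0.33 to 0.45). Mrpl11, of the stalk base, had 1581 counts in pTh17 and 1232 in npTh17, a log2 ratio of 0.47 (0.36 to 0.58). Mrpl10, which anchors Mrpl12, had 1808 counts in pTh17 and 1837 in npTh17, a log2 ratio of 0.09 with an interval (-0.01 to 0.18) that included equal levels.

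Around the peptidyl transferase centre the ratios also diverged. Mrpl2, a conserved core protein close to the centre, had 1955 counts in pTh17 and 1597 in npTh17 (log2 ratio 0.40, 0.31 to 0.50). Mrpl27, whose bacterial homologue reaches towards the centre, had 887 counts in pTh17 and 752 in npTh17 (log2 ratio 0.35, 0.21 to 0.49), and Mrpl16, another core protein near the bound tRNAs, had 1373 counts in pTh17 and 1171 in npTh17 (log2 ratio 0.34, 0.23 to 0.46). Mrpl3, another conserved core protein, lay on the npTh17 side with 3676 counts in pTh17 and 4353 in npTh17 (log2 ratio -0.13, -0.20 to -0.07). By the deposited FPKM values it was nearly level, at 31.9 in pTh17 and 31.6 in npTh17.

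Of the proteins that line or surround the exit tunnel, Mrpl22 had 931 counts in pTh17 and 707 in npTh17 (log2 ratio 0.51, 0.37 to 0.65) and Mrpl23 had 1374 counts in pTh17 and 1259 in npTh17 (0.24, 0.13 to 0.35). Mrpl24 had 2209 counts in pTh17 and 2330 in npTh17 (0.04, -0.05 to 0.12). Mrpl45, which ties the ribosome to the inner membrane at the tunnel exit, had 1694 counts in pTh17 and 1877 in npTh17 (-0.04, -0.13 to 0.06). The intervals of Mrpl24 and Mrpl45 included equal levels.

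The central protuberance, the crest of the large subunit, is built largely of proteins particular to mitochondria. Mrpl38, Mrpl40, Mrpl46 and Mrpl48 are given here as examples of it, chosen after their values were seen. Mrpl38 had 2387 counts in pTh17 and 1682 in npTh17 (log2 ratio 0.62, 0.53 to 0.71), and Mrpl40 had 1716 counts in pTh17 and 1289 in npTh17 (0.52, 0.42 to 0.63). Mrpl46 had 1292 counts in pTh17 and 1169 in npTh17 (0.26, 0.14 to 0.37) and Mrpl48 had 1405 counts in pTh17 and 1255 in npTh17 (0.27, 0.16 to 0.39). Mrpl58, a peptidyl-tRNA hydrolase built into the ribosome, had 1393 counts in pTh17 and 1355 in npTh17 (0.15, 0.04 to 0.26).

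The 5 lowest large-subunit genes by symbol were Mrpl44, Mrpl3, Mrpl30, Mrpl4 and Mrpl17, and none was at or below -0.32. Mrpl44, which has the fold of a ribonuclease III, had 1091 counts in pTh17 and 1320 in npTh17 (log2 ratio -0.16, -0.28 to -0.05). Mrpl30 had 2434 counts in pTh17 and 2858 in npTh17 (-0.12, -0.20 to -0.04). The intervals of Mrpl4 (1757 counts in pTh17 and 1996 in npTh17) and Mrpl17 (2044 counts in pTh17 and 2311 in npTh17) included equal levels.

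Among small-subunit genes the highest were Mrps12, Mrps16, Mrps11, Mrps36 and Mrps25. Mrps12 (chr7:28739641-28741820, minus strand), the protein of the decoding centre whose bacterial homologue is the site of streptomycin resistance, had 1270 counts in pTh17 and 713 in npTh17, a 1.92-fold ratio (1.75 to 2.11). Mrps16, known from inherited defects of mitochondrial translation, had 978 counts in pTh17 and 640 in npTh17, a 1.65-fold ratio (1.49 to 1.83). Mrps11, of the platform, had 877 counts in pTh17 and 580 in npTh17, a 1.63-fold ratio (1.47 to 1.82). These 3 are proteins of bacterial descent, and none reached 2-fold.

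Mrps36 had 815 counts in pTh17 and 552 in npTh17, a 1.59-fold ratio (1.43 to 1.78), but its product is now known as a component of the 2-oxoglutarate dehydrogenase complex and not of the ribosome. Mrps25 had 2549 counts in pTh17 and 1820 in npTh17, a 1.51-fold ratio (1.42 to 1.61). Of the exon bases of Mrps25, 69.8% overlap Nr2c2 on the opposite strand, which had 2215 counts in pTh17 and 3197 in npTh17. The summed counts of Mrps25 and Nr2c2 were 4764 in pTh17 and 5017 in npTh17, a log2 ratio of 0.04 (-0.02 to 0.09).

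The lowest small-subunit genes were Mrps30, Mrps35, Mrps9, Mrps10 and Mrps14. Mrps30 (chr13:118378381-118387252, minus strand), which despite its symbol sits in the large subunit in mammalian structures, had 1436 counts in pTh17 and 1973 in npTh17, a log2 ratio of -0.35 (-0.45 to -0.25). Mrps35 (chr6:147042764-147073991, plus strand), a protein with no bacterial counterpart, had 960 counts in pTh17 and 1299 in npTh17, a log2 ratio of -0.32 (-0.45 to -0.20). They were the only members at or below -0.32, and with plain library totals in place of scaled ones only Mrps30 was. Mrps9 had 1703 counts in pTh17 and 2133 in npTh17 (log2 ratio -0.21, -0.31 to -0.12), Mrps10 had 1317 counts in pTh17 and 1586 in npTh17 (-0.16, -0.26 to -0.05), and Mrps14 had 1155 counts in pTh17 and 1357 in npTh17 (-0.12, -0.23 to -0.01). Mrps9, Mrps10 and Mrps14 belong to the head of the small subunit by their bacterial homologues, as do Mrps7 and Mrps24, which were higher in pTh17 with log2 ratios of 0.33 (0.25 to 0.41) and 0.41 (0.27 to 0.55).

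The Mrps18 family has 3 paralogs, of which Mrps18c and Mrps18b encode small-subunit proteins and Mrps18a a large-subunit one. Mrps18a had 1375 counts in pTh17 and 1095 in npTh17, a log2 ratio of 0.44 (0.32 to 0.56). Mrps18c had 934 counts in pTh17 and 741 in npTh17, a log2 ratio of 0.45 (0.31 to 0.59), and Mrps18b had 2962 counts in pTh17 and 2708 in npTh17, a log2 ratio of 0.24 (0.17 to 0.32). All 3 were higher in pTh17 whichever subunit holds the product.

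Set against each other, large-subunit and small-subunit genes had similar medians. The median log2 ratio was 0.21 for the 49 large-subunit genes and 0.24 for the 29 small-subunit genes, a difference of -0.03, while the means were 0.30 ± 0.34 and 0.24 ± 0.34 (SD over genes), a difference of 0.07 with the other sign. The ratio was above 1 for 42 of 49 large-subunit genes and for 19 of 29 small-subunit genes, against 49.4% of measured genes. Log2 ratios of at least 0.32 were seen for 18 large-subunit and 14 small-subunit genes, against 16.5% of measured genes. By symbol, log2 ratios of -0.32 or below were seen for 0 large-subunit and 2 small-subunit genes, against 15.2% of measured genes. The 2 included Mrps30, whose product sits in the large subunit. Summed counts gave a log2 ratio of 0.23 (0.22 to 0.25) for the large subunit and 0.18 (0.16 to 0.20) for the small subunit. Genes are not replicates of a condition, so the difference between subunits was not tested.

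Assigning genes by structure, with Mrps30 and Mrps18a in the large subunit and Mrps36 left out, gave medians of 0.21 over 51 genes and 0.24 over 26 genes. At 0.32 or above were then 19 large-subunit and 12 small-subunit genes, against 16.5% of measured genes. At -0.32 or below were 1 large-subunit gene (Mrps30) and 1 small-subunit gene (Mrps35), against 15.2%. Within the large subunit, 21 proteins found only in mitochondria had a median of 0.27 and 30 of bacterial descent had 0.18. In the small subunit the medians were 0.17 over 10 mitochondrial proteins and 0.36 over 16 of bacterial descent. Log2 ratios of the summed counts were 0.30 (0.28 to 0.32) for mitochondrial and 0.19 (0.17 to 0.20) for bacterial-descent proteins of the large subunit. In the small subunit they were 0.19 (0.16 to 0.22) for mitochondrial and 0.18 (0.15 to 0.21) for bacterial-descent proteins, with intervals that overlap. These differences were not tested.

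The length of the longest transcript went with the ratio. The median length of the longest protein-coding transcript was 1328 bases for members and 3130 bases for all measured genes, and shorter transcripts had higher ratios over all measured genes too. Over the 78 members, log2 ratio and log2 length had a Spearman coefficient of -0.46 and a Pearson r of -0.44. The Spearman coefficient was -0.47 over the large subunit and -0.43 over the small subunit, against -0.14 over 10594 measured genes with a length. The relation depended on the length used. By the shortest protein-coding transcript the coefficients were -0.05 over members and -0.06 over all measured genes. By the union of exons they were -0.52 and -0.16, and by the length that counts and FPKM together imply -0.43 and -0.15. No trend on the shortest transcript was taken off. These are correlations across genes of the same pair of libraries and are given as descriptions. GC content went with the ratio as well (Spearman coefficient 0.41 over members and 0.19 over all measured genes), as did mean CPM (Spearman coefficient -0.40 over members and -0.03 over all). The part of these properties in the ratios was not tested.

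The 24 members with transcripts below 1000 bases had a median log2 ratio of 0.45, against 0.31 over 499 other genes of that length. Of these members 23 lay above 1, against 76.4% of the other genes of that length. A log2 ratio of 0.32 was reached by 18 members (49.9% of all measured genes of that length) and -0.32 by 0 (6.12%). From 1000 to below 1500 bases the medians were 0.21 over 22 members and 0.10 over 902 other genes, with 8 members at 0.32 or above (27.3%) and 0 at -0.32 or below (9.63%). From 1500 to below 3000 bases they were 0.01 over 15 members and -0.01 over 3525 other genes, with 2 members at 0.32 or above (15.2%) and 0 at -0.32 or below (16.3%). At 3000 bases and above they were 0.18 over 17 members and -0.04 over 5590 other genes, with 4 members at 0.32 or above (12.4%) and 2 at -0.32 or below (16.3%). The member medians were above those of other genes in each class, by the least between 1500 and 3000 bases.

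**Figure D2:**
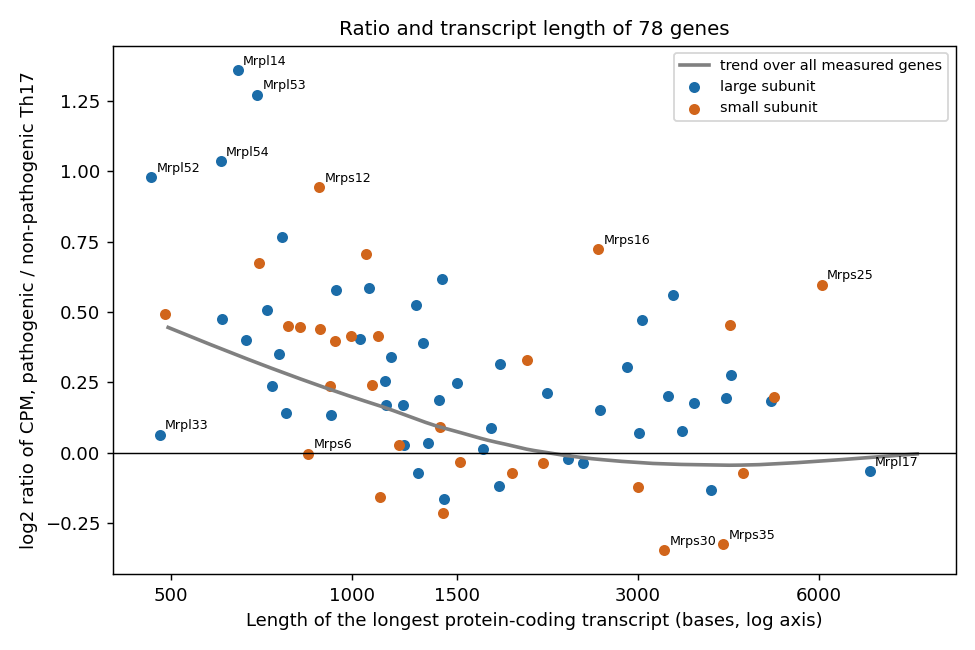
Log2 ratio of CPM, pathogenic over non-pathogenic Th17, against the length of the longest protein-coding transcript on a log axis, for the 78 members (blue, large subunit; orange, small subunit), with the loess trend over all measured genes in grey. The highest ratios, such as Mrpl14 at 645 bases and Mrpl52 at 463 bases, lie among short transcripts, and Mrps16 and Mrps25 are high among longer ones.

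The relation had exceptions at both ends. Of the 4 members with the shortest transcripts, Mrpl52 (463 bases), Mrps21 (488 bases) and Mrpl54 (604 bases) had ratios of 1.97-fold, 1.41-fold and 2.05-fold. Mrpl33 (478 bases) had 1742 counts in pTh17 and 1801 in npTh17, a log2 ratio of 0.06 (-0.03 to 0.16). Mrps6 (846 bases) had 1945 counts in pTh17 and 2106 in npTh17, a log2 ratio of -0.0027 (-0.09 to 0.09). Mrps16 (2572 bases), Mrpl51 (3427 bases) and Mrps26 (4278 bases) were high for their length, at 1.65-fold, 1.47-fold and 1.37-fold. The 4 longest annotated transcripts were those of Mrpl17, Mrps25, Mrps17 and Mrpl19, with log2 ratios of -0.07, 0.60, 0.20 and 0.18. Counts and FPKM in pTh17 implied 4944 bases for Mrpl17, against 7300 annotated, and 2230 for Mrps17, against 5061. For Mrps25 and Mrpl19 the implied length was longer than the annotated one. Mrps25 shares most of its exon bases with Nr2c2, as given above.

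With the trend on length over all measured genes taken off, the median over members was 0.15, with 0.17 for the large subunit and 0.065 for the small subunit. With the trend on length and GC content taken off it was 0.16, with 0.18 for the large subunit and 0.073 for the small subunit. The difference between subunit medians was then 0.11 and 0.10, with the large subunit higher, while before any trend was taken off the medians differed by -0.03. The difference between subunit means moved less, from 0.07 before to 0.06 and 0.05. With a trend on the union of exons in place of transcript length the medians differed by 0.025. On the length scale 18 members were at 0.32 or above (15.3% of measured genes) and 2 at -0.32 or below (15.4%). On the length and GC scale 21 members were at 0.32 or above (15%) and 0 at -0.32 or below (15.1%). Mrpl53, Mrpl14, Mrps16 and Mrps12 stayed at log2 values of 0.95, 0.93, 0.77 and 0.66 on that scale, and Mrpl33 was at -0.28.

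**Figure D3:**
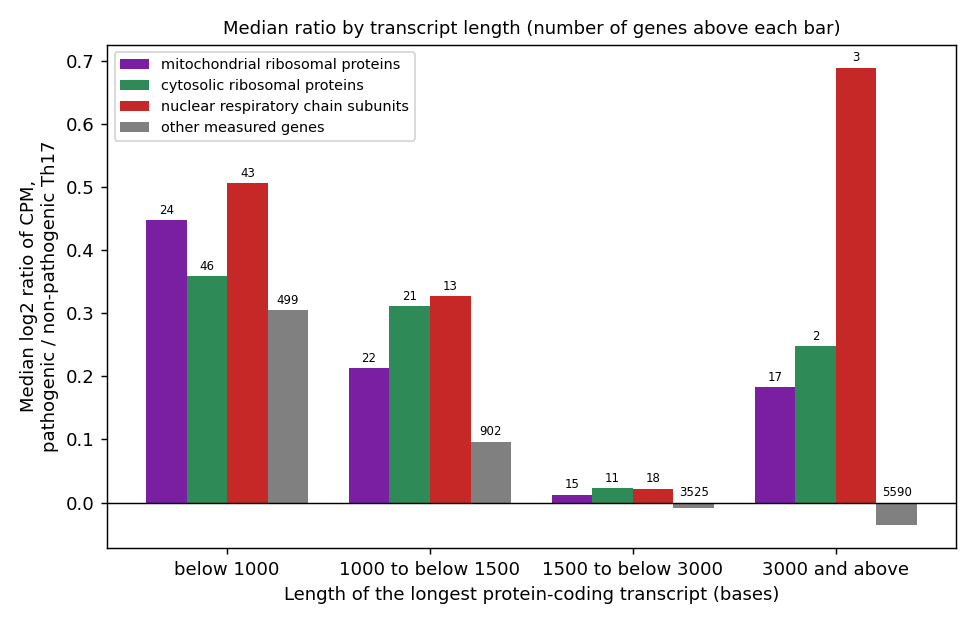
Median log2 ratio of CPM, pathogenic over non-pathogenic Th17, in 4 classes of transcript length, for mitochondrial ribosomal proteins, cytosolic ribosomal proteins, nuclear respiratory chain subunits and the other measured genes. The number of genes stands above each bar. Medians are 0.45, 0.36, 0.51 and 0.31 below 1000 bases and lie close to 0 for all 4 sets between 1500 and 3000 bases.

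Per length, the genes spanned a wide range although their products are mostly present once in each ribosome. The authors' deposited FPKM values, counts relative to transcript length and depth, ran between 6.75 and 134 in pTh17, a 19.8-fold span, and between 5.73 and 97.6 in npTh17, a 17-fold span. The median was 33.5 FPKM in pTh17 and 27.2 in npTh17, against 11.3 FPKM over all measured genes in each library. Above that all-gene median lay 72 members in pTh17 and 66 in npTh17. The order of members was much the same in both libraries, with a Spearman coefficient of 0.94 across the 78 genes. Large-subunit genes had medians of 33.7 FPKM in pTh17 and 27.5 in npTh17, and small-subunit genes had 33.4 FPKM in pTh17 and 25.8 in npTh17.

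The most abundant members were Mrpl42, Mrpl52, Mrpl33 and Mrpl12. Mrpl42 had 116 FPKM in pTh17 and 88.3 in npTh17, Mrpl52 had 134 FPKM in pTh17 and 68.0 in npTh17, Mrpl33 had 102 FPKM in pTh17 and 97.6 in npTh17, and Mrpl12, the 1 protein known to be present in several copies in each ribosome, had 109 FPKM in pTh17 and 83.6 in npTh17. The least abundant were Mrpl57 with 8.14 FPKM in pTh17 and 6.61 in npTh17, Mrps35 with 6.75 FPKM in pTh17 and 8.32 in npTh17, Mrps16 with 10.8 FPKM in pTh17 and 6.55 in npTh17, and Mrpl35 with 9.76 FPKM in pTh17 and 8.65 in npTh17. Level per length did not order the ratios, with a Spearman coefficient of 0.01 between mean FPKM and log2 ratio across members. For mean CPM, which is not relative to length, the coefficient was -0.40. The top 4 held both Mrpl52 (1.97-fold) and Mrpl33 (1.05-fold), and the bottom 4 both Mrps16 (1.65-fold) and Mrps35 (log2 ratio -0.32).

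**Figure D4:**
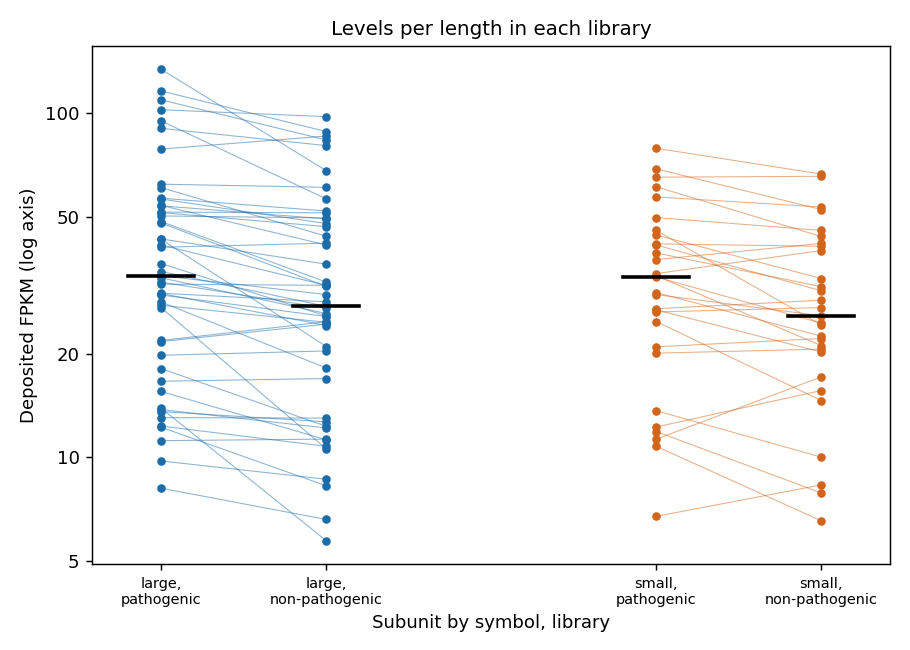
Deposited FPKM on a log axis for each large-subunit and small-subunit gene in pTh17 and npTh17, with lines joining the same gene and black bars at the medians. Medians are 33.7 FPKM in pTh17 and 27.5 in npTh17 for the large subunit and 33.4 FPKM in pTh17 and 25.8 in npTh17 for the small subunit, and most lines slope down towards npTh17.

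Ratios from counts and from FPKM differed by more than 0.2 on the log2 scale for 3 members. Mrps14 had log2 ratios of -0.12 from counts and -0.60 from FPKM, Mrpl58 had 0.15 and -0.18, and Mrpl48 had 0.27 and 0.56. The length that the counts and FPKM together imply differed between libraries for these genes, for Mrps14 with 3228 bases in pTh17 and 2297 bases in npTh17. The sources used here do not say how the authors set it.

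The labels describe no strand-marking step, so reads of overlapping genes on opposite strands cannot be told apart. Exon bases were shared with another gene of the count table by 23 members, and by at least 25% of the member's exon bases for 6 of them. Besides Mrpl53 and Mrps25 these were Mrps34 (63.4% with Mapk8ip3, opposite strand, and 37.0% with Nme3, same strand), Mrpl19 (36.0% with Gcfc2, opposite strand), Mrpl43 (33.4% with Twnk, opposite strand) and Mrpl24 (26.3% with Rrnad1, opposite strand). Mrps34 had 2116 counts in pTh17 and 1938 in npTh17 and Mapk8ip3 had 3004 counts in pTh17 and 3751 in npTh17, summing to a log2 ratio of -0.04 (-0.09 to 0.01). Mrpl43 had 1442 counts in pTh17 and 1370 in npTh17. Twnk, the mitochondrial DNA helicase, had 1709 counts in pTh17 and 1591 in npTh17, and the sum with Mrpl43 had a log2 ratio of 0.20 (0.13 to 0.27). Mrpl19 had 2430 counts in pTh17 and 2314 in npTh17. Gcfc2 had 670 counts in pTh17 and 923 in npTh17, and the sum with Mrpl19 had a log2 ratio of 0.05 (-0.02 to 0.12). The sum of Mrpl24 and Rrnad1 also had 0.05 (-0.02 to 0.12). The other 17 members, Mrpl9, Mrpl13, Mrpl14, Mrpl18, Mrpl21, Mrpl27, Mrpl36, Mrpl44, Mrpl46, Mrpl47, Mrpl48, Mrpl49, Mrps6, Mrps7, Mrps11, Mrps24 and Mrps30, shared between 2.58% and 19.9% of their exon bases with any 1 such gene.

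Proteins of the mitochondrial ribosome that carry other symbols also lay on both sides. Of 5 in the table, Chchd1, a small-subunit protein, had 1603 counts in pTh17 and 1083 in npTh17 (log2 ratio 0.68, 0.57 to 0.79). Gadd45gip1, a large-subunit protein also called CRIF1, had 2698 counts in pTh17 and 1829 in npTh17 (0.67, 0.59 to 0.76). Aurkaip1 had 1973 counts in pTh17 and 1849 in npTh17 (0.21, 0.11 to 0.30), Dap3, a GTP-binding protein of the small subunit, had 3089 counts in pTh17 and 3449 in npTh17 (-0.05, -0.12 to 0.02), and Ptcd3, a pentatricopeptide repeat protein, had 4775 counts in pTh17 and 5681 in npTh17 (-0.14, -0.19 to -0.08). The median of the 5 was 0.21, with 2 at 0.32 or above (16.5% of measured genes) and 0 at -0.32 or below (15.2%).

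Factors that build and run the ribosome lay close to the middle of all genes. Over 31 genes of ribosome assembly and ribosomal RNA processing the median log2 ratio was -0.02. Of them 1 was at 0.32 or above (16.5% of measured genes) and 2 at -0.32 or below (15.2%). The higher one was Slirp, an RNA-binding partner of Lrpprc, with 841 counts in pTh17 and 473 in npTh17 (0.94, 0.78 to 1.11). The lower ones were the methyltransferase Mettl15, with 197 counts in pTh17 and 319 in npTh17 (-0.58, -0.85 to -0.32), and the helicase Ddx28, with 1094 counts in pTh17 and 1688 in npTh17 (-0.51, -0.62 to -0.40). Median transcript length was 2262 bases in that list, longer than in the members.

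Over 13 translation factors the median was 0.02, with 2 at 0.32 or above (16.5% of measured genes) and 2 at -0.32 or below (15.2%). The elongation factor Tsfm had 1331 counts in pTh17 and 1002 in npTh17 (0.52, 0.40 to 0.64), and the translational activator Taco1 had 626 counts in pTh17 and 502 in npTh17 (0.43, 0.26 to 0.60). The recycling factor Mrrf had 1345 counts in pTh17 and 2278 in npTh17 (-0.65, -0.75 to -0.55) and the initiation factor Mtif3 had 604 counts in pTh17 and 1012 in npTh17 (-0.63, -0.78 to -0.49). Over 17 mitochondrial tRNA synthetases the median was 0.01, with 2 at 0.32 or above (16.5% of measured genes) and 5 at -0.32 or below (15.2%). The 2 were Mars2 at 0.58 and Ears2 at 0.55, and the lowest was Wars2 at -0.51. Both lists held genes on either side of equal levels.

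Over 22 measured genes of mitochondrial DNA upkeep, transcription and its nuclear regulators the median was 0.02. Of them 2 were at 0.32 or above (16.5% of all measured genes) and 0 at -0.32 or below (15.2%). Esrra, a nuclear receptor of mitochondrial gene programmes, had 707 counts in pTh17 and 372 in npTh17 (1.04, 0.86 to 1.22), and its coactivator Ppargc1b had 320 counts in pTh17 and 225 in npTh17 (0.62, 0.37 to 0.87). Ppargc1a was at 0 counts in both. Of the factors whose letters were searched in the promoters, Nrf1 had 1453 counts in pTh17 and 1916 in npTh17 (-0.29, -0.39 to -0.19), Yy1 had 4203 counts in pTh17 and 5279 in npTh17 (-0.22, -0.28 to -0.16) and Gabpa, the DNA-binding part of GABP, had 4253 counts in pTh17 and 4612 in npTh17 (-0.0049, -0.07 to 0.06). Gabpb2, which encodes another GABP subunit, had 5580 counts in pTh17 and 4972 in npTh17 (0.28, 0.22 to 0.33). Other members of the ETS family are not described here.

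The templates of the mitochondrial ribosome had lower summed levels in pTh17. The 13 mitochondrially encoded mRNAs in the table summed to 27910 CPM in pTh17 and 34414 CPM in npTh17, and their median log2 ratio was -0.27. Of them 1 was at 0.32 or above (16.5% of all measured genes) and 6 at -0.32 or below (15.2%). Among them, mt-Nd5 had 63993 counts in pTh17 and 102276 in npTh17 (-0.56, -0.58 to -0.55) and mt-Nd3 had 6005 counts in pTh17 and 4611 in npTh17 (0.49, 0.44 to 0.55). Their ratios also ran with length (Spearman coefficient -0.69 over 13 genes). Nuclear-encoded subunits of the respiratory chain lay the other way, with a median of 0.34 over 77 genes, 41 of them at 0.32 or above and 0 at -0.32 or below. The median transcript length of that list was 908 bases, and of all measured genes below 1000 bases 49.9% were at 0.32 or above and 6.12% at -0.32 or below.

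Cytosolic ribosomal proteins, which have short transcripts too, had ratios like those of the members before the length trend was taken off. Their median log2 ratio was 0.29 over 80 genes with a median length of 926 bases, with 36 at 0.32 or above (16.5% of all measured genes and 49.9% of those below 1000 bases) and 1 at -0.32 or below (15.2% and 6.12%). With the length trend taken off the medians were 0.15 for the members, 0.05 for the cytosolic ribosomal proteins and 0.11 for the nuclear respiratory chain subunits. With the length and GC trend taken off they were 0.16 for the members, 0.06 for the cytosolic ribosomal proteins and 0.13 for the respiratory chain subunits. Whether these lists differ was not tested.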

How the data were processed

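RNA from 2 cultures was measured, 1 library each. The authors deposited whole-number counts per gene and FPKM values for the same rows, per the file headers. Per the submitters' processing notes the build was mm10. The aligner, the counting program and the annotation behind the counts were not given in the sources used here. Rows that name no gene held 2.50% of pTh17 counts and 2.90% of npTh17 counts and stayed out of sizes and ratios. Counts of 2 were 3.42 times as frequent as counts of 1 in pTh17 and 4.37 times in npTh17. A fragment may therefore have been counted more than once, and the intervals may be too narrow.

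Library sizes were scaled by TMM (edgeR 4.0.16, R 4.3.3). Ratios are log2 of scaled CPM with a prior count of 1, over genes averaging 1 CPM or more. Intervals (scipy 1.17.1) cover 95%. No test was made and no p-value computed, since each condition had 1 library. Transcript lengths, GC content and exons came from GENCODE M21, where all 78 members were found, and promoter windows from RefSeq. Trends were loess fits with a span of 0.5, except the trend from genes outside the set, a lowess fit with a narrower span. The scripts were tested on simulated data. The text names, by rule, the members with extreme ratios, levels or lengths, those with shared exons and the Mrps18 paralogs (47 in all), and the genes furthest from 0 in other lists. Members named for a place in the ribosome, such as stalk, tunnel and central protuberance, were added after values were seen. The members and gene lists were chosen with earlier results of these data known.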

Additional observations from a re-analysis of the deposited data

How the results depend on the processing

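Over the scalings, filters, prior counts and deposited FPKM values tried, the median log2 ratio of the members stayed between 0.22 and 0.25. Under plain totals, and under totals with unnamed features, 1 member had a log2 ratio of -0.32 or below in place of 2. Taking off the length trend left a small-subunit median of 0.065, a large minus small difference of 0.11, and 18 members at 0.32 or above and 1 at least 2-fold apart. Taking off the length and GC trend gave 0.073, 0.10, 21 at 0.32 or above, 0 at -0.32 or below and 0 at least 2-fold apart. Chosen after seeing the data, a length trend from genes outside the set also used a narrower fit. What the narrower fit and the left-out genes each did cannot be told apart. That trend gave a member median of 0.13, a small-subunit median of 0.085 and a large minus small difference of 0.07. It left 19 at 0.32 or above, 1 at -0.32 or below and 0 at least 2-fold apart. A trend on the union of exons, also chosen after seeing the data, gave a small-subunit median of 0.16 and a difference of 0.025. With it 20 were at 0.32 or above, 0 at -0.32 or below and 1 at least 2-fold apart. These shifts are the trend values subtracted, and their cause was not tested. For the trend from genes outside the set and the union trend, shares over all measured genes were not computed. On the first length scale they were 15.3% at 0.32 or above and 15.4% at -0.32 or below. Leaving out members that share at least 25% of exon bases gave a median of 0.24. Of 47 named members, the sign changed for 6 on the length and GC scale (Mrpl13, Mrpl24, Mrpl33, Mrpl36, Mrps14 and Mrps34). It changed for 2 by FPKM (Mrpl3 and Mrpl17) and for 1 under plain totals (Mrps6). Outside the 47, it changed among others for Mrpl23 (-0.033 on the length and GC scale) and Mrpl58 (-0.18 by FPKM). Of all 78 members, 61 lay above 1 before any trend was taken off. On the length scale 53 did (49.3% of measured genes), and on the length and GC scale 55 (49.4%). Halving the counts widened the median interval of the members' log2 ratios to 0.29, against 0.21. The intervals of Mrpl44, Mrps14 and Mrpl58 were among those that then included equal levels. Leaving out pseudogenes was not run, since none is a member. No paired analysis was possible because each condition had 1 library, and no replicate could be left out.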

Other observations

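Members often start close to a gene on the opposite strand. A protein-coding gene with a start site within 500 bases and pointing the other way was found for 25 of 78 members (32.1%), against 15.3% of 10502 other measured protein-coding genes. Mrps11 and Mrpl46 share 1 such region, with start sites 412 bases apart, and had log2 ratios of 0.71 and 0.26. The start sites of Mrpl36 and Ndufs6, a subunit of complex I, are 29 bases apart. Ndufs6 had 1037 counts in pTh17 and 405 in npTh17, a 2.76-fold ratio, while Mrpl36 had 1832 counts in pTh17 and 1802 in npTh17, a 1.10-fold ratio.

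Mrps12 lies 172 bases from Sars2, the mitochondrial seryl-tRNA synthetase, which had 859 counts in pTh17 and 874 in npTh17 (log2 ratio 0.09, -0.05 to 0.22), against 0.94 for Mrps12. Mrpl54 lies 26 bases from Apba3, with 898 counts in pTh17 and 833 in npTh17 (0.22, 0.08 to 0.36), against 1.04 for Mrpl54. Mrpl51 and the condensin gene Ncapd2, 100 bases apart, had log2 ratios of 0.56 and 0.47. Mrpl49 and Fau, which encodes a cytosolic ribosomal protein fused to a ubiquitin-like one, are 59 bases apart and had 0.31 and 0.28. Mrpl2 and the kinesin light chain gene Klc4, 207 bases apart, had 0.40 and -0.99. The pairs given are examples. In 24 pairs both genes were measured, and 17 of these lay on the same side of 1. The partner was above 1 in 13 of them, against 49.4% of all measured genes. How often other such pairs lie on the same side was not computed.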
